A study of Mus musculus with 6 samples.

Results

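The genes described here encode 10 integrin chains of leukocytes: the alpha chains Itgax, Itgam, Itgal, Itgav, Itga4 and Itgae, and the beta chains Itgb1, Itgb2, Itgb5 and Itgb7. They were chosen by gene name, and their probes are those whose RefSeq accession on the array names one of these genes, which gave 14 probes of 56605. All 10 genes had at least 1 probe, and 5 of them were bright enough to enter the comparison, out of 4488 genes that were. That total counts 1212 probes without a gene name as genes. The samples were mouse Peyer's patch cells sorted as C5aR+ LysoDCs, lysozyme-expressing phagocytes that carry the receptor for the complement fragment C5a. The 3 untreated samples received C5a at 0 nM, and the 3 C5a samples received recombinant C5a at 100 nM for 3 h. All 6 had been cultured with CSF-1 and a factor that the labels write as CFS-2. The labels give no strain, age, animal number or culture time of the untreated samples, and name no separate animals or cell preparations, so the p values reflect variation among these 6 arrays alone, some of which may be technical. The cells had been enriched with beads against CD11c, the product of Itgax, so that a signal of Itgax is what the selection asked for and is not a finding.

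Integrins are adhesion receptors made of 1 alpha and 1 beta chain, and a chain reaches the cell surface only with a partner. The chain Itgb2 pairs with Itgal to form LFA-1, with Itgam to form complement receptor 3 and with Itgax to form complement receptor 4, and the latter 2 bind iC3b, a fragment of complement C3. Itgav pairs with Itgb1, Itgb5 and other beta chains and binds vitronectin and latent TGF-beta, Itga4 pairs with Itgb1 or Itgb7 and binds VCAM-1 or the gut addressin MAdCAM-1, and Itgae pairs with Itgb7 and binds E-cadherin. In myeloid cells C5a and other chemoattractants are known to switch integrins to a binding state within minutes, a step that needs no new RNA, whereas the arrays measure RNA after hours.

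RefSeq promoter windows were at hand for 7 of the 10 genes. They are printed for the 4 of these that gave signal on every array, as the 250 bases before the transcription start in GRCm38.p6. Itgb2, which also gave signal on every array, had no window. All 4 lie on the plus strand, Itgam at chr7:128062390-128062639, Itgax at chr7:128129300-128129549, Itgav at chr2:83724147-83724396 and Itgb1 at chr8:128685404-128685653. Capitals mark GAGGAA on either strand, a core bound by the myeloid factor PU.1.
Itgam: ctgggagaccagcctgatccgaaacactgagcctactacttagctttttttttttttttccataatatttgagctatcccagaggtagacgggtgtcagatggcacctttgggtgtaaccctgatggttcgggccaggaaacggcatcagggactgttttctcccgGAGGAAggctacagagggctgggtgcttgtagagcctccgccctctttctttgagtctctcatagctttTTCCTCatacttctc
Itgax: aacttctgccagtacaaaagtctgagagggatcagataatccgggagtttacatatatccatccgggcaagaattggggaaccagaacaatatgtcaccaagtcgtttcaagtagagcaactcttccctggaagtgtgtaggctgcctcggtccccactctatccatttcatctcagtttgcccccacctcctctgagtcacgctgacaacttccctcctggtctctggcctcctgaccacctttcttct
Itgav: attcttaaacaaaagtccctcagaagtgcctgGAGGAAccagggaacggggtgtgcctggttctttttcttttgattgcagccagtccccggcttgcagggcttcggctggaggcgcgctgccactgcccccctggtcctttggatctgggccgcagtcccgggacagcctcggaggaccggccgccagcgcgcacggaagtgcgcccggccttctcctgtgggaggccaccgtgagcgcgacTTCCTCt
Itgb1: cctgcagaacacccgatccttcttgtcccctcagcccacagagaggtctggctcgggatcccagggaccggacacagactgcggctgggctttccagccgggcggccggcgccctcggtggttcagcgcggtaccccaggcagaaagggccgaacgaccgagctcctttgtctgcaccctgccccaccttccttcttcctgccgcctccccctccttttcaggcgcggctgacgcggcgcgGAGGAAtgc
The windows of Itgam and Itgax, neighbouring genes with 0 coding genes between them, held 6 and 5 CpG dinucleotides at 49.6% and 50% G and C, near the median of 6 CpG over 32851 such windows. Those of Itgav and Itgb1 held 18 and 21 CpG at 64.4% and 68% G and C, above 78.3% and 83.7% of all windows in CpG count. The windows not printed also varied, with 6 CpG for Itga4, 18 for Itgb5 and 5 for Itgb7, so the spread is not particular to the printed chains. GAGGAA occurred 2 times in Itgam, 2 times in Itgav, 1 time in Itgb1 and 0 times in the other 4 windows (Itgax, Itga4, Itgb5 and Itgb7), where 23.3% of all windows hold it. A match is a run of letters and no measured binding site.

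The arrays were dim and uneven. Per array 2728 to 6959 probes were well above background, a flag set by the scanner software, and untreated 3 had the fewest. Among the LysoDC markers, 14 of the 16 listed genes were well above background on at least 1 array, including Lyz1, Lyz2, Cd74 and Csf1r. Cx3cr1 and Mertk were on none, and 11 of the 16 were on all 6. The 14 include the chains Itgam and Itgax and the gene of the sorted receptor, C5ar1. Signals of Itgax and C5ar1 are what the selection asked for, yet C5ar1 passed the flag on only 3 arrays, 1 of them untreated. Markers of some other cell types were seen too. Of 5 plasma cell genes 4 (Jchain, Mzb1, Sdc1 and Xbp1) passed the flag on at least 1 array, and 1 of these on all 6. Of 5 genes of plasmacytoid dendritic cells 3 did (Siglech, Ccr9 and Tcf4), none of them on all 6. Of 8 neutrophil genes with a probe Csf3r alone did, on all 6 arrays, with S100a8, S100a9 and Mpo on none, and of 5 platelet genes Pf4 alone. Of 9 T cell genes 1 (Il7r) passed, and of 7 genes of conventional dendritic cells 1 (Batf3), with the CD3 genes and Zbtb46 on none. None of 8 epithelial, 5 natural killer cell, 5 mast cell and eosinophil and 7 stromal and endothelial genes did. The summed scaled level of the plasmacytoid list was 0.425 to 0.996 in untreated and 0.295 to 0.849 in C5a samples, that of the plasma cell list 0.431 to 0.751 and 0.410 to 0.766, and that of the neutrophil list 1.41 to 3.09 and 2.08 to 2.66. The groups overlapped in each, and the part of such cells in the results was not tested. The summed scaled level of the T cell list was 0.212 to 0.509 in untreated and 0.166 to 0.428 in C5a samples, and that of the LysoDC list 46.7 to 56.6 and 43.6 to 53.1. In such bulk samples, fewer cells of a type and less RNA per cell cannot be told apart.

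The integrin chains differed in whether the arrays detected them. Itgax, Itgam, Itgav, Itgb1 and Itgb2 were well above background on all 6 arrays, each through 1 probe. Of all probes 4.19% had that trait, which is a share of probes and not of genes. Itga4 was so on untreated 2 and C5a 3, and Itgb7 on C5a 2 alone. Itgal, Itgae and Itgb5 were on no array. Each array thus showed 5 or 6 of the 10 chains. Of the alpha chains that use Itgb2, those of complement receptors 3 and 4 were seen and that of LFA-1 was not, and neither was Itgad, the remaining one. Of the beta chains that take Itgav, Itgb1 was seen, while Itgb3, Itgb5, Itgb6 and Itgb8 were not. The same held for most integrin genes outside the 10: of 17 such chains, 15 were well above background on no array, Itga3 was on 1 C5a array, Itga9 on 1 untreated and 1 C5a array, and 0 could be tested.

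**Figure D1:**
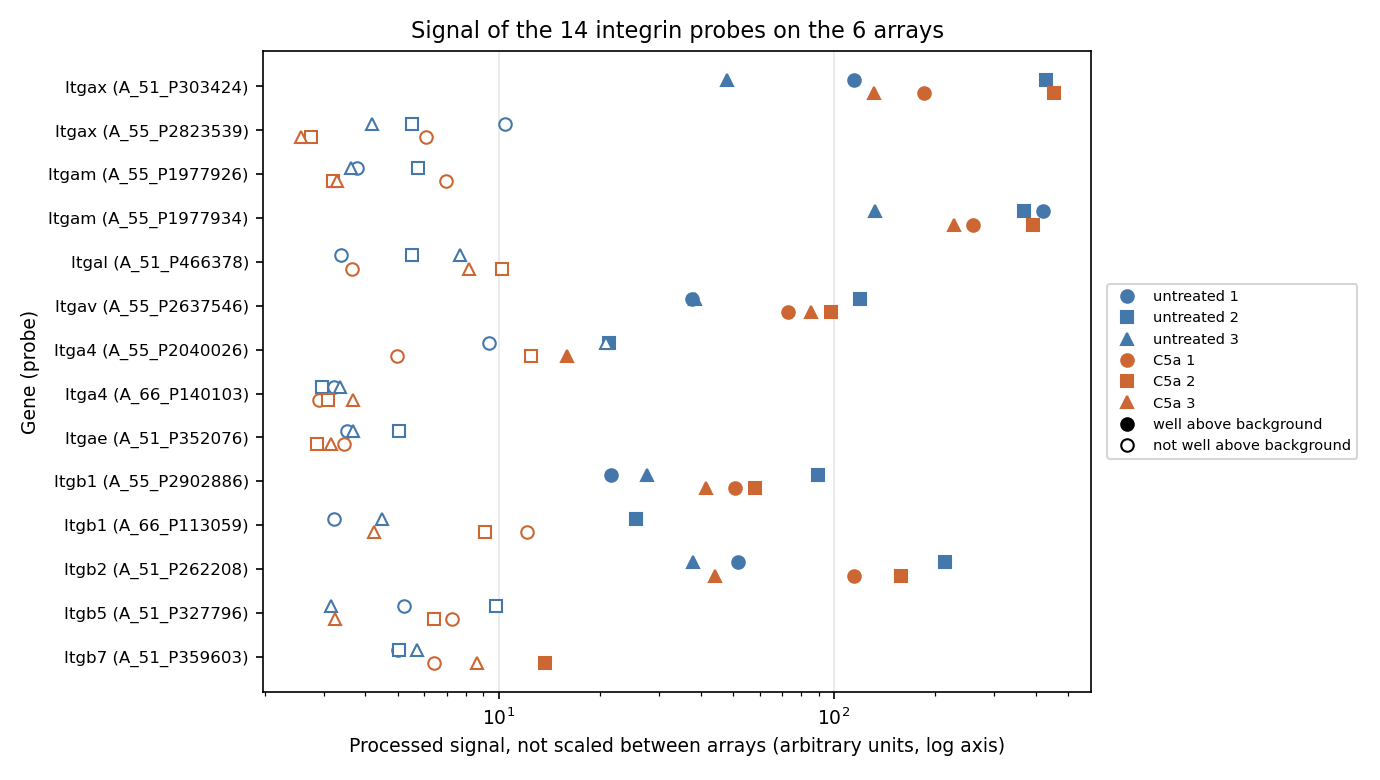
Processed signal in arbitrary units on a log axis, before scaling between arrays, for the 14 probes of the 10 integrin genes (rows), with untreated samples in blue, C5a samples in orange and the shape giving the replicate number. Filled points are well above background, as all 6 points of 1 probe each of Itgax, Itgam, Itgav, Itgb1 and Itgb2 are, while most other points are open.

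The dim chains were not all alike. The processed signals of Itgal in untreated 1 to 3 were 3.38, 5.52 and 7.67, while C5a 1 to 3 gave 3.64, 10.2 and 8.14. All of these lay below the dimmest probe that was well above background on the same array, which was at 10.5 to 12.8. Even so, the signal of Itgal passed a weaker flag, positive and significant against its local background, on all 6 arrays, which 10.1% of probes and 0% of negative control spots did. Itgb5 passed the weaker flag on 5 arrays, Itgb7 on 2 and Itgae on 1. Single negative control spots passed it at a rate of 3.25% to 6.49% per array. No fold is given for these chains, since their values have only a bound.

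Itga4 and Itgb7 were detected on some arrays only. The brighter probe of Itga4 (A_55_P2040026) read 9.37, 21.3 and 20.9 on untreated 1 to 3, and 4.96, 12.5 and 16.0 on C5a 1 to 3. The other probe of Itga4 was well above background on no array. The groups overlapped. Itgb7 gave 5.02, 5.02 and 5.69 in untreated and 6.39, 13.7 and 8.63 in C5a samples, each above the untreated signals before scaling. After scaling, at -5.03, -6.52 and -4.26 against -5.31, -4.78 and -4.16 on the log2 scale, the groups overlapped. Only the signal of C5a 2 was well above background, so that the other Itgb7 values show no order.

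None of the 5 chains that could be tested passed the comparison of C5a with untreated cells, which asks whether 3 h of C5a changed their RNA. Scaled levels are log2 signals relative to the 75th percentile of detected probes on the same array, and differences are C5a minus untreated with n = 3 per group. In limma with Benjamini-Hochberg adjustment over all genes, 0 of 5 had an adjusted p under 0.05, as did 0 of 4488 genes (0%). At an unadjusted p under 0.05 the counts were 0 of 5 and 106 of 4488 (2.36%). In 0 of 5 chains did the samples of the groups lie apart, which they did for 5.7% of all genes. The differences ran from -0.23 to 0.46, with 4 positive and 1 negative and a median of 0.11. Over all genes the median was 0.04 and 54.9% were positive.

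**Figure D2:**
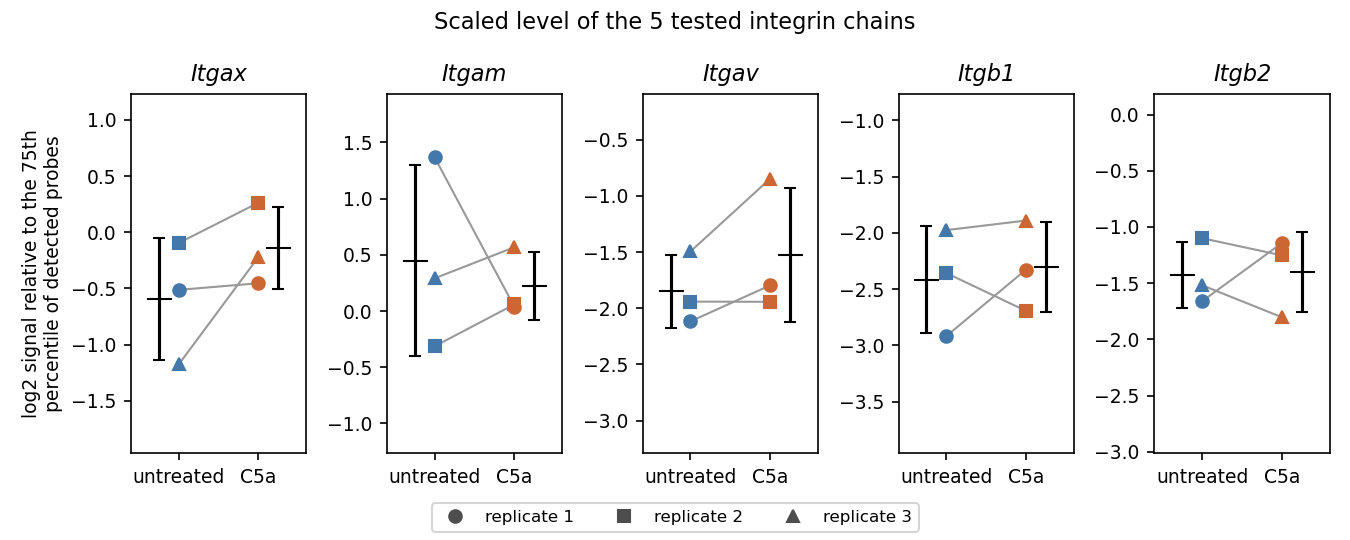
Scaled log2 level (y axis) of the 5 tested chains in untreated (blue) and C5a (orange) samples, with grey lines joining samples of the same replicate number and black bars giving the mean and SD of 3 samples. All panels span the same number of log2 units, probes are not to be compared between panels, and in each panel the groups overlap.

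Itgax, the CD11c chain, stood at -0.51, -0.10 and -1.18 in untreated 1 to 3, and C5a 1 to 3 stood at -0.45, 0.26 and -0.22. It was lowest in untreated 3 and highest in C5a 2, and the groups overlapped. The untreated mean was -0.59 ± 0.54 (SD) and the C5a mean -0.14 ± 0.37. They differed by 0.46 (SE 0.37, 95% interval -0.41 to 1.33, limma adjusted p = 0.999). Between samples of the same number the difference was 0.06, 0.36 and 0.95, higher with C5a in 3 of 3, as it was for 14.4% of all genes. Untreated 3, which sets the size of the last of these, was also the array with the fewest probes well above background. Without it the difference was 0.17, against 0.26 without C5a 2 and 0.71 without untreated 2. With the row of the slide that held each array as a covariate the difference was 0.14. The lower row held C5a 2 and C5a 3 alone, so that value is C5a 1 less the mean of the untreated samples. The second probe of Itgax was well above background on no array.

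Itgam, the CD11b chain, gave the one negative difference. It was at 1.37, -0.31 and 0.29 in untreated and at 0.04, 0.06 and 0.57 in C5a samples. Untreated 1 was far above the other untreated samples, and all C5a samples lay between the untreated ones. The difference was -0.23 (SE 0.46, 95% interval -1.30 to 0.85, limma adjusted p = 0.999). It was -1.33 for number 1 and 0.37 and 0.28 for numbers 2 and 3, and without untreated 1 it was 0.23. The sign also turned, to 0.14, when arrays were scaled by the 75th percentile of all probes, which moved the median of all genes to 0.40. That scaling shifts all genes alike, and relative to the median gene Itgam was at -0.26 under both. The signal came from the probe designed on NM_001082960. The probe on the other transcript record, NM_008401, was well above background on no array, so that the level of Itgam here rests on 1 probe.

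Itgav, which can activate latent TGF-beta, was at -2.12, -1.94 and -1.49 in untreated and at -1.80, -1.94 and -0.85 in C5a samples. Both samples numbered 3 were the highest of their group. The difference was 0.32 (SE 0.38, 95% interval -0.56 to 1.21, limma adjusted p = 0.999). It rested on C5a 3, without which it was -0.02, and it was 0.08 with normexp, another background correction, and 0.05 with the slide row as a covariate.

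The beta chains had the smallest differences of the 5. Itgb2, the partner of the CD11 chains, was at -1.66, -1.10 and -1.52 in untreated and at -1.14, -1.25 and -1.80 in C5a samples, and it had the narrowest range over the 6 arrays, 0.70, of the 5 chains. The difference was 0.03 (SE 0.31, 95% interval -0.70 to 0.75, limma adjusted p = 0.999), so that a rise or fall of more than 1.68-fold lies outside the unadjusted interval. Its sign changed with single samples, to -0.09 without untreated 1, -0.02 without untreated 3, -0.10 without C5a 1 and -0.05 without C5a 2. Itgb1, the beta chain of many matrix receptors, was at -2.92, -2.36 and -1.98 in untreated and at -2.33, -2.69 and -1.89 in C5a samples. Its difference was 0.11 (SE 0.36, 95% interval -0.73 to 0.96, limma adjusted p = 0.999), and -0.14 without untreated 1 and -0.09 without C5a 3. The second probe of Itgb1 was well above background on untreated 2 alone. With normexp background correction both beta chains had a negative difference, -0.11 for Itgb2 and -0.12 for Itgb1, where the median of all genes was -0.12.

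The chains did not share 1 pattern over the arrays. Itgav and Itgb1 were highest in number 3, with means over both samples of -1.17 and -1.93 against -1.96 and -2.62 in number 1. Itgax and Itgb2 were lowest in number 3, at -0.70 and -1.66, and highest in number 2, at 0.08 and -1.18. Itgam was lowest in number 2, at -0.13, and highest in number 1, at 0.70. All 6 arrays sat on 1 slide, with C5a 2 and C5a 3 in its lower row and the rest in the upper. Within the upper row C5a 1 differed from the mean of the untreated samples by 0.14 for Itgax, -0.41 for Itgam, 0.05 for Itgav, 0.09 for Itgb1 and 0.28 for Itgb2. These are the same values that the slide row as a covariate gives, and each rests on C5a 1 alone.

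The genes nearest to each chain, by the root mean square difference over the 6 arrays after centring each gene, were Samhd1 and Zdhhc5 for Itgax (0.129 and 0.142) and Tbc1d9 and Med16 for Itgam (0.145 and 0.147). For Itgav they were Ung and Cops8 (0.119 and 0.133), for Itgb1 Ms4a4c and Slc38a2 (0.0527 and 0.081) and for Itgb2 Slc25a5 and Eif3l (0.0734 and 0.0803). The median distance to all named genes was 0.473 to 0.734. These are the closest of 3276 named genes on 6 arrays, and no integrin chain was among them.

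Integrins are switched on from inside the cell by talin and kindlin, which bind the beta tail under control of the small GTPase Rap1, and are tied to actin by alpha-actinin, filamin and the ILK complex. Of 37 listed activator and adaptor genes with a probe, 26 were well above background on at least 1 array and 23 were tested. Tln1, encoding talin 1, passed that flag on every array, with a difference of 0.09 (SE 0.46), while Fermt3, encoding the kindlin of blood cells, was on no array. In limma with Benjamini-Hochberg adjustment 0 of the 23 were called and 2 had an unadjusted p under 0.05, with 13 positive and 10 negative differences and a median of 0.02. The groups lay apart, with C5a above, for Actn4, Rap1b and Dok1, as they did for 3.39% of all genes. Actn4 and Dok1 were each well above background on 1 of 3 untreated and all 3 C5a arrays and so entered the comparison only through the group where they were higher, so that nothing is read from the count.

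Rap1b, one of the Rap1 genes, was at -0.98, -1.78 and -1.28 in untreated and at -0.67, -0.44 and -0.47 in C5a samples, well above background on all 6 arrays. Every C5a sample lay above every untreated one. The difference was 0.82 (SE 0.30, unadjusted p = 0.0282, limma adjusted p = 0.999), and 62 of the 4488 genes had a p as small or smaller. It was 0.60 without untreated 2 (limma unadjusted p = 0.0932) and 0.50 with normexp. Its near relative Rap1a differed by 0.20 (SE 0.33). Actn4, an alpha-actinin, had a difference of 0.99 (SE 0.26), and 0.23 with normexp. Ilk, the kinase-like adaptor of beta tails, differed by -0.83 (SE 0.54). This rested on C5a 3, at -5.96 and not well above background, and without it the difference was -0.20. Untreated 1 and untreated 3 were not well above background for Ilk either, so that value too rests partly on dim signal.

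**Figure D3:**
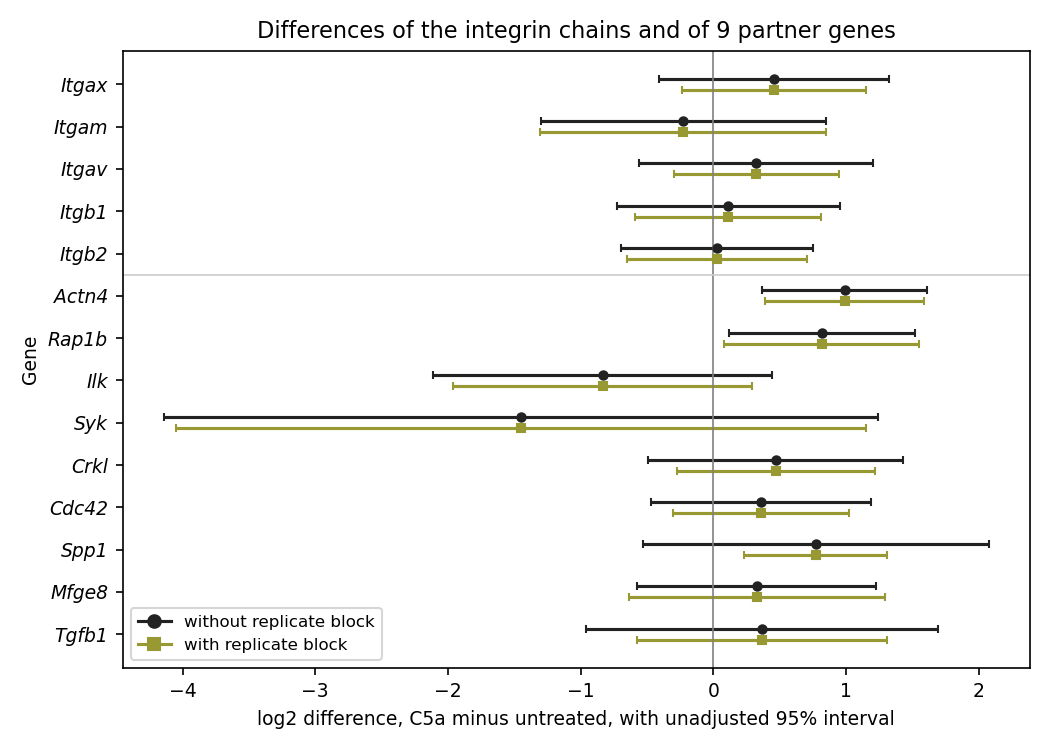
Log2 difference, C5a minus untreated (x axis), with unadjusted 95% intervals from limma for the 5 tested integrin chains (above the line) and for the 3 genes with the smallest p of each partner list, without (black) and with (olive) the replicate number as a block. All intervals of the integrin chains include 0, and no gene passed after adjustment.

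Ligand-bound integrins signal through Src family kinases, Syk and small GTPases to the actin skeleton. Of the 29 listed genes 26 were well above background on at least 1 array, and of 22 tested limma with Benjamini-Hochberg adjustment called 0, with 0 at an unadjusted p under 0.05. Their differences were 12 positive and 10 negative, with a median of 0.03. Syk had the largest at -1.45 (SE 1.14), but without C5a 3 it was -0.0046. That sample was at -6.01 and not well above background, where the others lay between -2.23 and -1.22. Crkl, an adaptor, differed by 0.47 (SE 0.41), -0.12 with normexp and 0.07 without untreated 3. Cdc42, a small GTPase that controls actin, differed by 0.36 (SE 0.35), 0.03 with normexp and 0.06 without untreated 3. Untreated 3 was not well above background for Cdc42.

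Among ligands of integrins, 6 of 29 listed genes were well above background on at least 1 array, and all 6 were tested: Spp1, Mfge8, Tgfb1, Vcam1, F11r and C3. Icam1, the ligand of LFA-1, Fn1, the fibronectin gene, and Cdh1 were on none. In limma with Benjamini-Hochberg adjustment 0 were called, with 0 at an unadjusted p under 0.05, and 4 differences were positive (median 0.31). Spp1, which encodes osteopontin, a ligand of Itgav and Itga4 integrins, differed by 0.77 (SE 0.55), and by 0.73, 0.74 and 0.85 between samples of the same number. With the replicate block its SE was 0.21 and its unadjusted p 0.0147 in limma (adjusted p = 0.927). No other of the 6 ligands had such a p under 0.05 in that fit. Of all 4488 genes, 114 with a positive and 77 with a negative difference had one. The difference of Spp1 was 0.20 with normexp, 0.34 without untreated 2, 0.37 without C5a 3 and 1.21 without C5a 2. Mfge8, a bridge between Itgav integrins and dying cells, differed by 0.33 (SE 0.38), with a sign that turned with normexp (-0.08) and without C5a 3 (-0.0042). Tgfb1 differed by 0.37 (SE 0.56), -0.19 with normexp and -0.28 without untreated 3. C3, source of the iC3b that complement receptors 3 and 4 bind, passed the flag on every array, with a difference of -0.20 (SE 0.46).

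**Figure D4:**
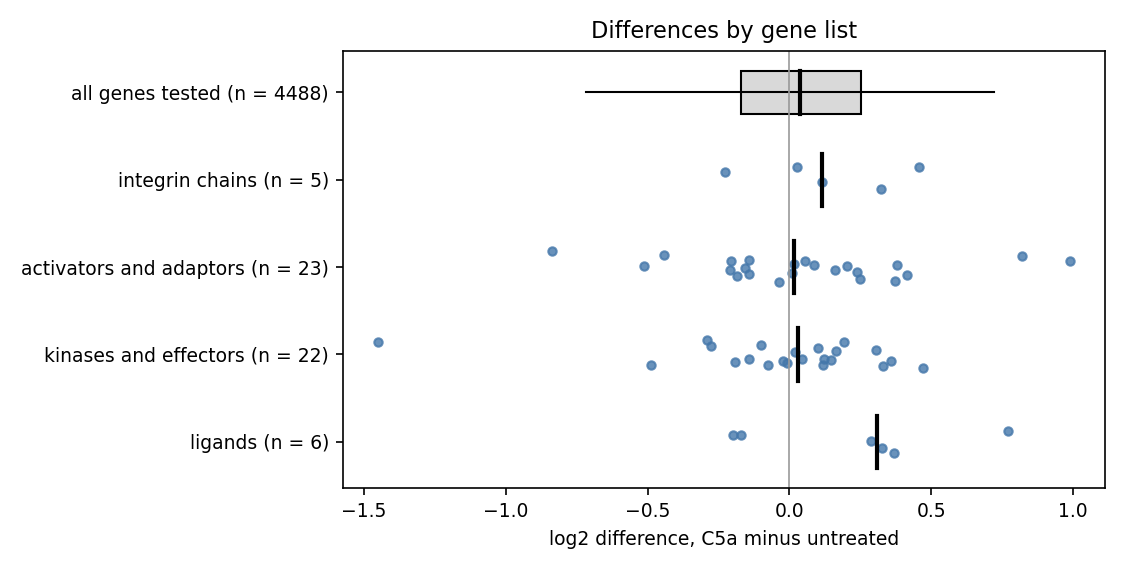
Log2 difference, C5a minus untreated (x axis), for the tested genes of each list (points, with the median as a black bar), below the spread of all 4488 genes (box from the 25th to the 75th percentile, line from the 5th to the 95th). The 5 integrin chains lie between -0.23 and 0.46, inside the -0.72 to 0.72 that hold 90% of all genes.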

How the data were processed

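RNA of 6 samples was measured on 1-colour arrays, 1 array per sample. Per the file headers, Agilent Feature Extraction 10.10.1.1 read the arrays (design 074809), and the deposited scanner files give intensity per spot, with background subtracted within the array and no scaling between arrays, and flags set to 0 or 1. The deposited series table holds log2 values of the authors. Its deviations from each probe's mean lay within 0.01 of those of log2 processed signal less the 75th percentile over all probes for 100% of values, so its scale and direction are known, while each probe's baseline stays unknown. The medians of its untreated columns were 0.17, -0.08 and 0.18, and those of its C5a columns 0.01, -0.02 and 0.22.

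Control spots were left out, as were the 112 to 138 spots per array marked as outliers where a probe had others, and 0 spots were saturated. Probes were named through their accession with RefSeq GRCm38.p6, which matched 32994 of 56605. A probe counted as well above background where at least 0.5 of its spots were. As under 1 probe in 5 was, log2 signals were scaled by each array's 75th percentile over the 2371 probes that carried the flag on every array. Probes well above background on at least 3 arrays were kept (4958), and the brightest stood for its gene, which gave 4488 genes. Of these, 3276 had a gene name, and 1212 were probes without one, each counted as a gene. Shares of all genes are over both kinds. Groups were compared with limma 3.58.1 in R 4.3.3 (lmFit, eBayes, Benjamini-Hochberg, threshold 0.05), tested on simulated data. The number of arrays limits the precision. Deviations from group means correlated at 0.211, 0.269 and 0.384 between samples of the same number, and at -0.252 to 0.0712 between others. Samples numbered 2 also had the most probes well above background in each group (6959 and 6651). Those numbered 3 had the fewest (2728 and 3668). The labels do not say what the numbers share, so whether they pair the samples was not established. The main fit leaves the numbers out, and the replicate block adds them.

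Named were all 10 chains, any other chain well above background on at least 3 arrays (0), the 3 genes with the smallest p in each of the other 3 lists, and the 2 nearest genes of each tested chain. Dok1, Rap1a, Tln1, Fermt3, C3, Icam1, Fn1 and others were named after their values were seen. Members and lists were chosen with earlier results of these data known. Alternatives covered scaling, background correction (normexp with an offset of 50), filters, flags, probe choice, the series table, the block, the slide row, array weights, an intensity trend and each sample left out. The array design cites another build than the promoter table, which served for the printed windows only. Another list of cell type markers is not reported here.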

Additional observations from a re-analysis of the deposited data

How the results depend on the processing

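Limma with Benjamini-Hochberg adjustment called 0 of the 5 chains under each of the 18 alternatives, and 0 genes of all tested under 17 of them. Without the filter on dim probes it called 47, of which 41 had no probe well above background on more than 1 array, and none was one of the 10 chains. The series table repeats the scaling by the 75th percentile over all probes, so these 2 are not separate checks. In both, and without the filter, the 14 named genes shared 1 SE, at 0.84, 0.84 and 0.77. None of the 5 chains differed by as much, so those fits could not have called them. The median difference of the 5 chains (0.11) was 0.48 with the 75th percentile over all probes and 0.47 with the series table, where the median gene stood at 0.40, and -0.11 with normexp, where it stood at -0.12. Leaving out single samples gave -0.018 to 0.26. Of 246 values of 14 named genes, 19 changed sign, 10 of them with 1 sample left out. Signs turned for Itgam with the percentile over all probes and with the series table (0.14 in both), which shift all genes alike and left it at -0.26 relative to the median gene, and for Itgb1 (-0.12), Itgb2 (-0.11), Crkl (-0.12), Mfge8 (-0.078) and Tgfb1 (-0.19) with normexp. Array weights turned Itgb1 (-0.11) and Mfge8 (-0.15). That fit gave C5a 2 a weight of 4.145 and the other arrays 0.53 to 1.275, so it leans on C5a 2. With 1 sample left out, values ran from -0.61 to 0.23 for Itgam, -0.018 to 0.53 for Itgav, -0.14 to 0.33 for Itgb1, -0.10 to 0.23 for Itgb2, -0.0042 to 0.67 for Mfge8 and -0.28 to 0.79 for Tgfb1. The cause of the sign changes other than those 2 of Itgam was not tested. Itgax kept its sign under all 18, from 0.14 to 0.82. The replicate block left each difference as it was, lowered the SE of the chains to between 0.24 and 0.41 and changed no call, with adjusted p from 0.927 to 0.993. With the weaker flag 10 of the 10 chains counted as detected on at least 1 array, against 7. Dim signal limits the other 5 chains to what the flags show.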
